A study of Arabidopsis with 12 samples.

Results

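Plant defensins and pathogenesis-related (PR) proteins are secreted products of 2 arms of plant defence. The 10 Arabidopsis genes described here are 6 defensin genes of family PDF1 (PDF1.1, PDF1.2, PDF1.2b, PDF1.2c, PDF1.3 and PDF1.4) and 4 PR genes (PR1, PR2, PR4 and PR5). They were taken by locus from the 27655 genes of the table, with the transcripts of a locus summed, and all 10 were present. The genes were chosen by TPM values of these libraries already known. Which comparison chose them is not recorded, and it was taken to be that of the genotypes in the dark, where PDF1.2, PDF1.2c, PDF1.3 and PR1 had been described. Differences in the dark are therefore a description below, with no test. The choice may also have used the light libraries. Differences and calls of the 10 genes in the light are for this reason description too, with no p-value.

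Total RNA of seedlings was sequenced in 12 libraries, 3 in each of 4 groups. All plants carried the flu mutation, which removes a brake on tetrapyrrole synthesis, so that a photosensitising chlorophyll precursor builds up in darkness and yields singlet oxygen in plastids upon illumination. The flu/toc33-1 double mutant, written flu toc33 here, also carries toc33-1, a mutant allele of an import receptor of the outer chloroplast membrane. Plants grew under constant light to an age of 7 d, as the titles give it, and then spent 4 h in darkness, after which the dark groups were taken, while the lit groups had a further 1 h of light. The tissue label is leaf, whereas the titles speak of seedlings. The series' title asks how TOC33 relays the singlet oxygen signal from chloroplast to nucleus. Wild type plants were not analysed here and lit groups were harvested 1 h after dark ones, so effects of light, singlet oxygen and time cannot be told apart.

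In Arabidopsis, jasmonate and ethylene together raise PDF1.2 through transcription factors of the ethylene response factor family, of which ORA59 and ERF1B are the best known. Jasmonate alone acts through MYC2 on a separate branch, with VSP2 and LOX2 as outputs. Salicylic acid raises PR1, PR2 and PR5 through the receptor NPR1 and TGA factors. PR1 is a secreted protein of the CAP family, PR2 a beta-1,3-glucanase, PR4 a chitin-binding protein related to hevein and PR5 a thaumatin-like protein, while defensins are small cysteine-rich peptides that act on fungi.

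Levels are TPM, the share of a transcript among all transcripts of its library after correction for length. TPM keeps no depth: read numbers are unknown, and counting intervals are not given. Each library had 18533 to 19023 genes at 1 TPM or above, and replicates correlated across genes at 0.992 to 0.996. TOC33 itself ran from 169 to 215 TPM in the flu libraries, from 48.2 to 49.4 TPM in flu toc33 dark and from 3.76 to 4.28 TPM in flu toc33 light. Whether replicates came from separate cultures is not stated, and the p-values then reflect only variation between these samples, which may be technical. In whole seedlings, fewer cells of a type and less RNA per cell cannot be told apart.

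The defensin genes most used as jasmonate and ethylene markers were the most abundant of the family in flu. PDF1.2 (AT5G44420) stood at 150.3, 144 and 169 TPM in the 3 flu dark libraries, at 76.3, 76.8 and 75.5 TPM in flu light, at 0.690, 0.528 and 1.04 TPM in dark flu toc33 and at 0.827, 0.875 and 0.687 TPM in lit flu toc33. All 6 flu libraries lay far above all 6 flu toc33 libraries, flu light lay below flu dark without overlap, and the flu toc33 groups overlapped. PDF1.2c (AT5G44430), its neighbour on chromosome 5, stood at 84.3, 83.3 and 97.5 TPM in flu dark, 43.6, 42.1 and 37.9 TPM in flu light, 0.385, 0.393 and 0.387 TPM in flu toc33 dark and 0.367, 0.195 and 0 TPM in flu toc33 light. Its order over the groups was the same in flu, and in the double mutant no library reached 1 TPM. PDF1.3 (AT2G26010), on chromosome 2, stood at 196, 183 and 163 TPM in flu dark, 106, 92.1 and 84.1 TPM in flu light, 5.16, 5.25 and 2.90 TPM in flu toc33 dark and 4.09, 4.46 and 2.87 TPM in flu toc33 light. PDF1.3 kept a few TPM in every library of the double mutant, and its dark and lit groups overlapped there.

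PDF1.2b (AT2G26020), the neighbour of PDF1.3, was listed at far lower levels. It stood at 6.91, 7.75 and 5.74 TPM in flu dark, 7.47, 4.75 and 4.88 TPM in flu light, 2.04, 2.396 and 2.36 TPM in flu toc33 dark and 0.755, 0.636 and 0.780 TPM in flu toc33 light. The flu groups overlapped, both flu toc33 groups lay below them, and the lit double mutant lay lowest. These 4 genes are near-identical copies, and the abundance estimate shares their reads out. In the deposited split PDF1.2b held 1.32% to 3.198% of the summed TPM of the 4 copies in the flu libraries and 10.3% to 35.3% in the flu toc33 libraries, while PDF1.2 held 32.7% to 38.8% and 6.17% to 15.8%. The share of PDF1.2c ran from 18.7% to 22.4% in flu and from 0 to 6.07% in flu toc33, and that of PDF1.3 from 37.5% to 45.4% and from 43.3% to 72.3%. Levels of single copies are for this reason uncertain, and the sum is the safer measure.

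The sum of the 4 copies stood at 437, 418 and 435 TPM in flu dark, 234, 216 and 202 TPM in flu light, 8.27, 8.57 and 6.69 TPM in flu toc33 dark and 6.04, 6.16 and 4.34 TPM in flu toc33 light. None of the 4 groups overlapped another. In flu toc33 the sum was 1.82% of that in flu without light and 2.54% with light. After 1 h of light the sum was at 50.5% of its dark level in flu and at 70.3% in flu toc33.

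**Figure D1:**
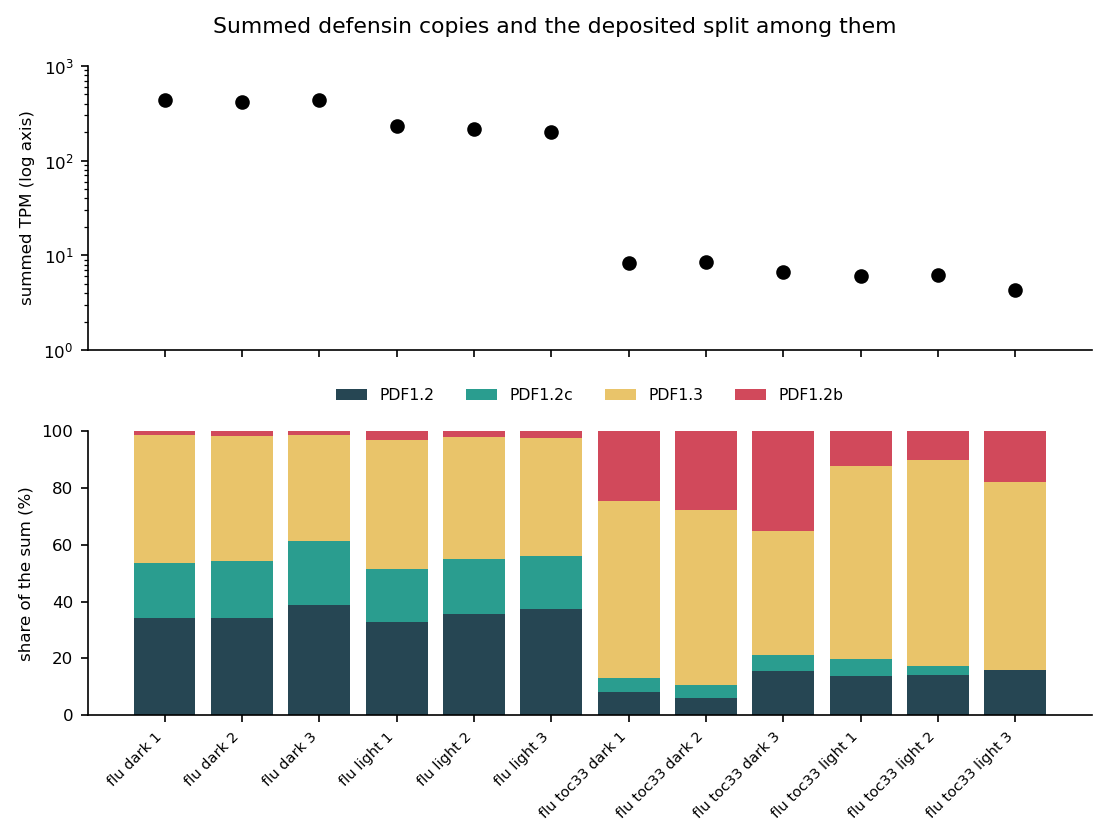
Summed TPM of PDF1.2, PDF1.2b, PDF1.2c and PDF1.3 in each library on a log axis (top, points) and the percentage of that sum given to each copy in the deposited table (bottom, stacked bars). The sum falls from 202 to 437 TPM in flu to 4.34 to 8.57 TPM in flu toc33, and the share given to PDF1.2b is larger in every flu toc33 library.

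The other defensin genes of the family had different patterns. PDF1.4 (AT1G19610), a less studied member, stood at 30.2, 26.4 and 31.0 TPM in flu dark, 11.2, 9.19 and 12.1 TPM in flu light, 11.8, 13.7 and 15.8 TPM in flu toc33 dark and 5.85, 5.38 and 6.79 TPM in flu toc33 light. It was highest in flu dark and lowest in flu toc33 light, and the groups in between overlapped. PDF1.1 (AT1G75830), known mainly as a seed defensin, stood at 1.22, 4.69 and 2.64 TPM in flu dark, 3.41, 6.17 and 3.27 TPM in flu light, 2.86, 2.27 and 3.17 TPM in flu toc33 dark and 13.8, 15.0 and 9.79 TPM in flu toc33 light. The lit double mutant was the one group that stood apart, above the other groups, which overlapped in turn from flu light to flu dark to flu toc33 dark.

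PR1 (AT2G14610), the standard marker of salicylic acid responses, stood at 31.8, 33.7 and 34.3 TPM in flu dark, 14.4, 13.0 and 15.1 TPM in flu light, 0.410, 0.416 and 0.329 TPM in flu toc33 dark and 0.564, 0.500 and 0.819 TPM in flu toc33 light. No groups overlapped, and every library of the double mutant was under 1 TPM. PR2 (AT3G57260) stood at 16.3, 24.8 and 16.5 TPM in flu dark, 6.67, 9.23 and 8.23 TPM in flu light, 3.62, 3.66 and 4.47 TPM in flu toc33 dark and 2.49, 2.02 and 1.62 TPM in flu toc33 light. Its 4 groups were ordered like those of the summed defensin copies and did not overlap. Nearly all PR2 signal was on the first of 2 listed transcripts, the second holding from 0 to 12.2% of the locus.

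PR4 (AT3G04720), which responds to ethylene and jasmonate, was the most abundant single gene of the 10. It stood at 321, 308 and 332 TPM in flu dark, 133, 132 and 130 TPM in flu light, 91.4, 90.2 and 90.5 TPM in flu toc33 dark and 62.1, 56.3 and 59.97 TPM in flu toc33 light. The groups were again in the order flu dark, flu light, flu toc33 dark and flu toc33 light, without overlap. PR5 (AT1G75040) differed from the other PR genes, at 6.57, 7.78 and 6.92 TPM in flu dark, 5.88, 6.15 and 7.33 TPM in flu light, 3.06, 3.604 and 3.26 TPM in flu toc33 dark and 7.95, 7.29 and 7.05 TPM in flu toc33 light. Its flu toc33 dark group lay below the 3 others, and those 3 overlapped as neighbours.

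**Figure D2:**
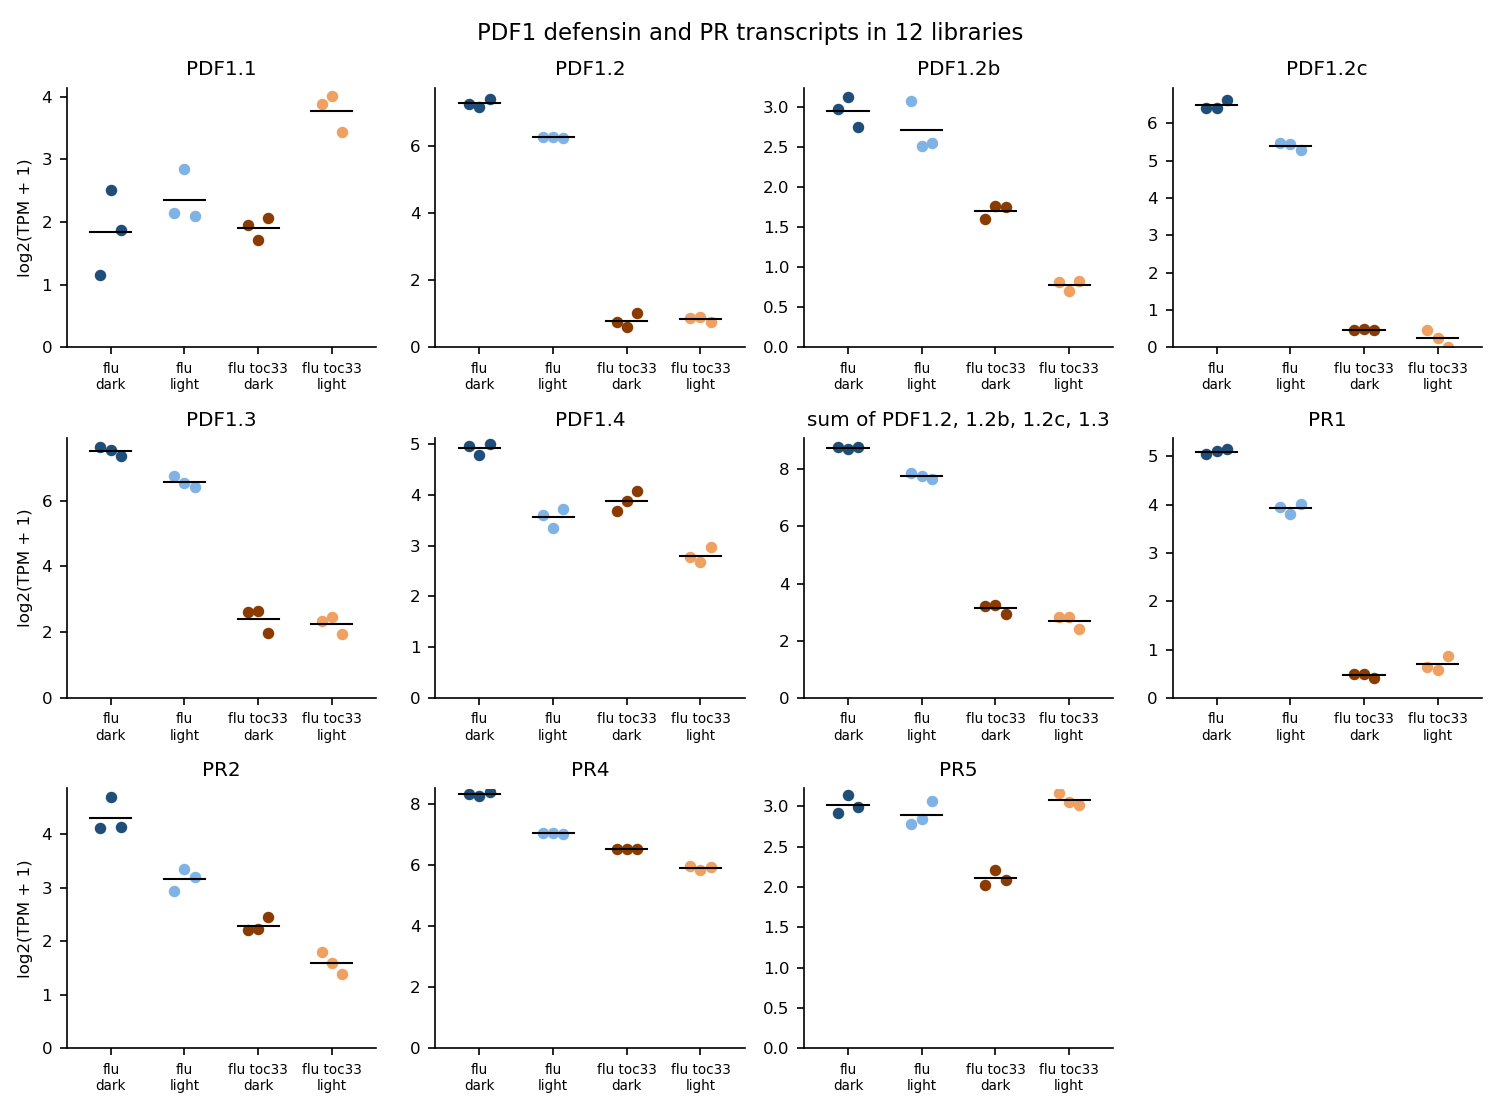
Level of each gene, and of the sum of 4 defensin copies, as log2(TPM + 1) in the 3 libraries of each group (points) with the group mean (line). PDF1.2, PDF1.2c and PR1 are near the floor in both flu toc33 groups, PDF1.3 keeps 2.87 to 5.25 TPM there, PR2 and PR4 step down over the 4 groups, and PDF1.1 and PR5 do not follow that order.

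The genotypes were compared in the light, in libraries that the dark comparison does not share. That the dark comparison chose the genes is only taken to be so, and the filter and the estimate of spread used all 12 libraries. The light comparison may have taken part in the choice. Calls of the 10 genes are therefore description, and nothing is read from their counts. The test was limma on log2(TPM + 1) with Benjamini-Hochberg adjustment over 19667 genes that reached 1 TPM in 3 or more libraries, and a gene is called at an adjusted p under 0.05. Fold changes of genes with few TPM are understated on this scale. Of the 10 genes, 8 were called lower in flu toc33 light than in flu light, PDF1.1 was called higher and PR5 was not called. Among the 8, PDF1.2, PDF1.2b, PDF1.2c and PDF1.3 are near-identical copies that share reads. They are not separate results, here or in the counts that follow. PDF1.2c and PR1 passed the filter on low values only through the flu libraries, which built a difference into passing, and without them 6 of 8 genes were called lower and 1 higher. Over all tested genes 27.9% were called lower and 39.0% higher, with a median difference of 0.08. Without overlap between the groups, 8 of the 10 genes were lower and 1 higher, against 31.2% and 42.8% of all tested genes. Median-ratio scaling turned that split of all genes, from 7662 higher and 5478 lower to 6018 higher and 6919 lower, and left the calls of the 10 genes as they were. All 10 genes passed the filter. PDF1.2, still among the 6, reached 1 TPM in just 1 flu toc33 library, so it too needed the flu libraries to pass. The median difference of the 10 genes was -1.75.

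The summed defensin copies were lower in flu toc33 light by a log2 of -5.08 ± 0.105 (SE from limma, n = 3 per group). No p is given for the sum or for the chosen genes, because the comparison that chose them is not recorded. Levels of single copies are uncertain because reads are shared, and so are their differences. For single copies the log2 difference was -5.43 for PDF1.2, -5.16 for PDF1.2c, -4.32 for PDF1.3 and -1.94 for PDF1.2b. PDF1.2 and PDF1.2c needed the flu libraries to pass the filter. PR1 differed by a log2 of -3.22 ± 0.0870 and held 4.43% of the flu TPM, and it too needed the flu libraries to pass. PR2 and PR4 were lower by -1.57 ± 0.159 and -1.13 ± 0.0399 and held 25.4% and 45.2% of the flu TPM. PDF1.4 was the least lowered of the 8, at -0.75 ± 0.116, with 55.5% of the flu TPM. PDF1.1 was higher by 1.42 ± 0.285, at 301% of the flu TPM. PR5 differed by 0.18 ± 0.0912 and was not called, and without flu light replicate 3 it was called higher, at 0.26.

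In the dark the same quantity was -5.61 ± 0.105 for the summed copies, -4.63 ± 0.0870 for PR1, -2.02 ± 0.159 for PR2, -1.81 ± 0.0399 for PR4, -1.03 ± 0.116 for PDF1.4, -0.91 ± 0.0912 for PR5 and 0.06 ± 0.285 for PDF1.1. In that comparison 9 of the 10 genes lay lower in flu toc33 without overlap, as did 23.4% of all tested genes, and none lay higher, against 26.1%. Nothing is read from these counts because this comparison is taken to have chosen the genes. PR5 and PDF1.1 are the members whose place relative to flu was not the same in dark and light: PR5 was below flu in the dark and overlapped it in the light, and PDF1.1 overlapped flu in the dark and was above it in the light.

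**Figure D3:**
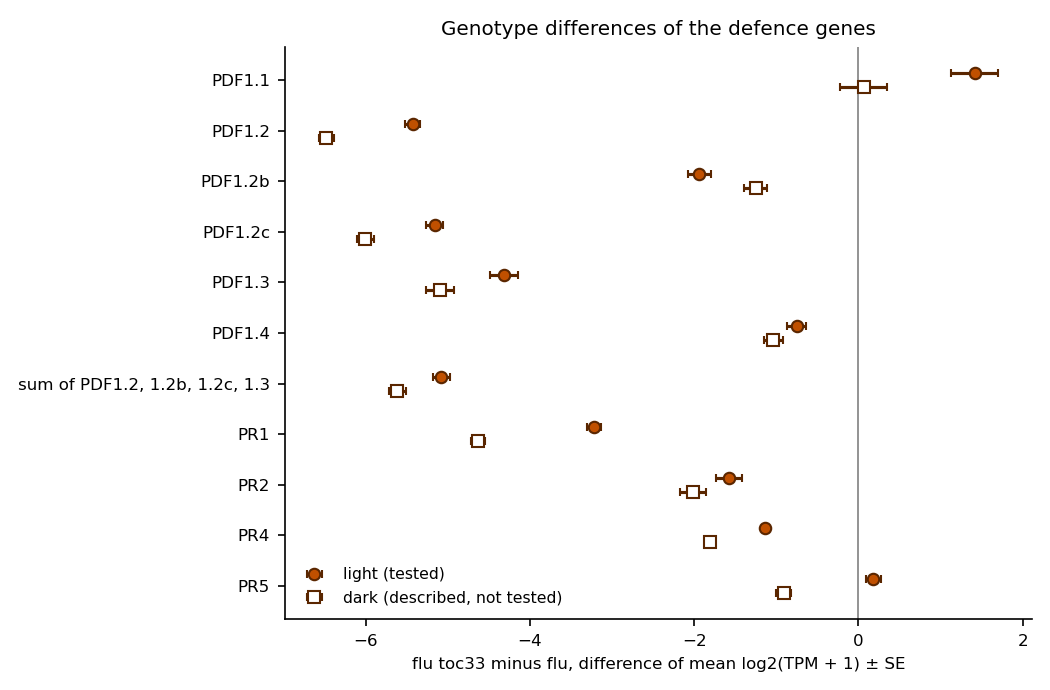
Difference between flu toc33 and flu in mean log2(TPM + 1), with its SE from limma, in the light (filled) and in the dark (open). The points for PDF1.2, PDF1.2c, PDF1.3 and their sum lie beyond -4 in both, PDF1.4 lies near -1, and PDF1.1 in the light and PR5 in the light are the points to the right of 0 by more than their SE.

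Light responses are given without a test, since they use the dark libraries. In flu, 7 of the 10 genes were lower after 1 h of light without overlap between the groups, against 33.9% of all tested genes, and none was higher without overlap, against 29.6%. Among the 7, PDF1.2, PDF1.2c and PDF1.3 share reads and are not separate results. The lit level was 41.0% of the dark level for PR4, 41.9% for PR2, 42.6% for PR1, 37.1% for PDF1.4, 46.6% for PDF1.2c, 49.4% for PDF1.2 and 52.0% for PDF1.3. The 7 genes lay between 37.1% and 52.0%, while their dark levels ran from 19.2 to 320.3 TPM. PDF1.2b at 83.8%, PR5 at 91.0% and PDF1.1 at 150.1% were the genes whose flu groups overlapped.

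In flu toc33, 5 of the 10 genes were lower in the light without overlap, against 33.7% of all tested genes, and 3 were higher, against 43.8%. The lower genes were PDF1.2b at 31.9% of the dark level, PDF1.4 at 43.5%, PR2 at 52.2%, PR4 at 65.5% and PDF1.2c, which was under 1 TPM in all 6 libraries. PDF1.2b and PDF1.2c share reads and are not separate results. The higher genes were PDF1.1 at 465% of the dark level, PR5 at 225% and PR1, which stayed under 1 TPM. PDF1.2 and PDF1.3 overlapped between dark and light. On the log2 scale the difference for PDF1.1 was 1.87 ± 0.285 (SE) in flu toc33 and 0.52 ± 0.285 in flu, that for PR5 was 0.97 ± 0.0912 and -0.12 ± 0.0912, and that for PDF1.4 was -1.08 ± 0.116 and -1.36 ± 0.116.

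Other genes of the same families came from lists of textbook members, drawn up with earlier results of these data known. Unless marked, the genes named from a list are the 3 with its smallest p between genotypes in the light. Their p-values in that comparison are therefore the extremes of the list. Of 9 further defensins of families PDF1 to PDF3, 4 were at levels that could be tested, and in flu toc33 light 2 were called higher and 2 lower than in flu light, with a median difference of -0.11. Over all tested genes 66.8% were called in that comparison. PDF2.3 (AT2G02130) stood at 86.0 ± 1.72 TPM (SD, n = 3) in flu light and 151 ± 5.33 TPM in flu toc33 light and was higher by a log2 of 0.81 (limma, adjusted p = 1.28e-08). PDF1.5 (AT1G55010) stood at 8.68 ± 0.665 and 5.85 ± 1.23 TPM and was lower by -0.51 (limma, adjusted p = 0.00208), and PDF2.1 (AT2G02120) was lower by -0.37 (limma, adjusted p = 0.00722). Quantile normalization and median-ratio scaling each gave 1 higher and 2 lower. The 4 differences ran from -0.51 to 0.81.

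Of 12 further PR-type genes, 9 were tested. In flu toc33 light 5 were called lower and 2 higher, against 27.9% and 39.0% of all tested genes, with a median of -0.52. EARLI1 (AT4G12480) and AZI1 (AT4G12470), neighbouring genes for small proteins of the lipid transfer type, had 131 ± 8.07 and 133 ± 9.17 TPM (SD, n = 3) under light in flu, against 18.2 ± 1.45 and 34.2 ± 2.36 TPM in flu toc33. They were lower by a log2 of -2.78 ± 0.0625 (SE) and -1.93 ± 0.0648 (limma, adjusted p = 1.92e-13 and 1.00e-11), and as similar neighbouring copies they may share reads. The thionin gene THI2.2 (AT5G36910), for a small antimicrobial peptide, was higher in flu toc33 in both treatments, at 51.3 ± 1.58 against 11.2 ± 0.618 TPM in the dark and 62.1 ± 1.80 against 13.8 ± 1.58 TPM in the light (limma, adjusted p = 9.99e-11 and 9.93e-12). EARLI1, AZI1 and THI2.2 were named because they had the smallest p of the list between genotypes in the light. In the dark 6 of the 9 tested genes were called lower and 1 higher, against 20.5% and 20.9% of all tested genes.

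The regulators of PDF1.2 moved with light in flu, in both directions, while the summed defensin copies stood lower. The list does not separate genes that raise PDF1.2 from genes that repress it. Of 17 ethylene and jasmonate regulators 16 were tested, and in flu 10 rose and 4 fell after 1 h of light, against 28.2% and 33.4% of all tested genes by limma, and 61.6% in either direction. ERF1B and MYC2 passed the filter only through lit libraries, and without them 8 of 14 rose and 4 fell. Quantile normalization moved the split of all genes there from 5547 higher and 6571 lower to 4691 and 8660. The list's median was 1.02, and 0.61 without MYC2, which was listed at 0 to the printed precision in flu dark libraries and stood at 73.3, 74.7 and 70.5 TPM in flu light. ERF5 (AT5G47230) rose from 3.98 ± 0.124 TPM (SD, n = 3) to 78.2 ± 1.57 TPM and ERF6 (AT4G17490) from 13.7 ± 1.55 to 168 ± 3.93 TPM (limma, adjusted p = 8.28e-15 and 8.99e-14). ERF1A (AT4G17500) rose from 42.4 ± 2.15 to 65.4 ± 1.399 TPM (limma, adjusted p = 3.16e-08).

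In flu toc33 those factors did not reach the same levels. ERF5 stood at 3.99 ± 0.408 TPM (SD, n = 3) in the dark and 5.63 ± 0.356 TPM in the light, ERF6 at 12.1 ± 1.04 and 12.1 ± 0.882 TPM and ERF1A at 46.1 ± 0.686 and 13.7 ± 0.337 TPM. Against flu light they were lower by a log2 of -3.58 ± 0.0699 (SE), -3.69 ± 0.0787 and -2.18 ± 0.0445, with limma adjusted p = 5.57e-14, 1.16e-13 and 8.44e-14. ERF5, ERF6 and ERF1A were named because their p in this comparison was the smallest of the list. Over the list, 13 of 16 genes were called lower in flu toc33 light and none higher, with a median of -1.68, against 27.9% and 39.0% of all tested genes, and 12 of 15 were lower without ERF1B. The light response itself was called smaller or more negative in flu toc33 for 14 of the 16 genes and larger for none (limma, interaction), against 25.1% and 31.6% of all tested genes, and 56.7% in either direction. Median-ratio scaling moved that split of all genes from 6220 larger and 4931 smaller to 4915 and 6186 and left the list at 14 smaller; without ERF1B 13 of 15 were smaller. In the dark 5 were called higher and 3 lower, where 41.4% of all tested genes were called. That count of 8 became 3 when only the compared groups entered the fit, and quantile normalization gave 3 higher and 3 lower.

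The 2 regulators best known for PDF1.2 were added by name after their values were seen. ORA59 (AT1G06160) stood at 10.6, 9.93 and 13.0 TPM in flu dark, 2.07, 2.32 and 1.46 TPM in flu light, 5.69, 5.31 and 5.63 TPM in flu toc33 dark and 0.311, 0.513 and 0.189 TPM in flu toc33 light. It was lower in the light in both genotypes and lower in flu toc33 in both treatments. The log2 differences were -2.05 and -2.30 for light and -0.89 and -1.14 for genotype. They are given with no p because ORA59 was added after its values were seen. ERF1B (AT3G23240) went from 0.586 ± 0.2996 to 7.02 ± 0.507 TPM (SD, n = 3) with light in flu and from 0.338 ± 0.153 to 0.550 ± 0.141 TPM in flu toc33. The difference of the light responses, flu toc33 minus flu, was a log2 of -2.14 ± 0.193 (SE), given with no p because ERF1B reached 1 TPM only in the 3 flu light libraries and so passed the filter through them alone. By group mean ORA59 ran from flu dark over flu toc33 dark and flu light to flu toc33 light, the order PDF1.4 had.

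The output genes of the MYC2 branch were also lower in flu toc33 in the dark. Of 8 genes tested, 7 were called lower in flu toc33 dark than in flu dark and none higher, against 20.5% and 20.9% of all tested genes. In the light 5 were lower and 3 higher, against 27.9% and 39.0%, with a median of -0.68, and median-ratio scaling gave 5 lower and 1 higher. LOX2 (AT3G45140), a lipoxygenase of jasmonate synthesis, fell from 128 ± 14.1 to 66.8 ± 1.11 TPM (SD, n = 3) with light in flu, whereas flu toc33 had 31.3 ± 0.904 TPM before and 34.1 ± 1.75 TPM after light. CORI3 (AT4G23600), which is induced by coronatine, went from 34.8 ± 3.66 to 26.6 ± 0.904 TPM in flu and from 6.98 ± 0.513 to 11.7 ± 0.506 TPM in flu toc33. AOS (AT5G42650), allene oxide synthase of jasmonate synthesis, instead rose in both genotypes, from 39.3 ± 3.99 to 109 ± 1.06 TPM in flu and from 20.1 ± 0.898 to 58.1 ± 0.664 TPM in flu toc33. In flu, 6 of the 8 genes fell in the light and 2 rose, against 33.4% and 28.2% of all tested genes.

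**Figure D4:**
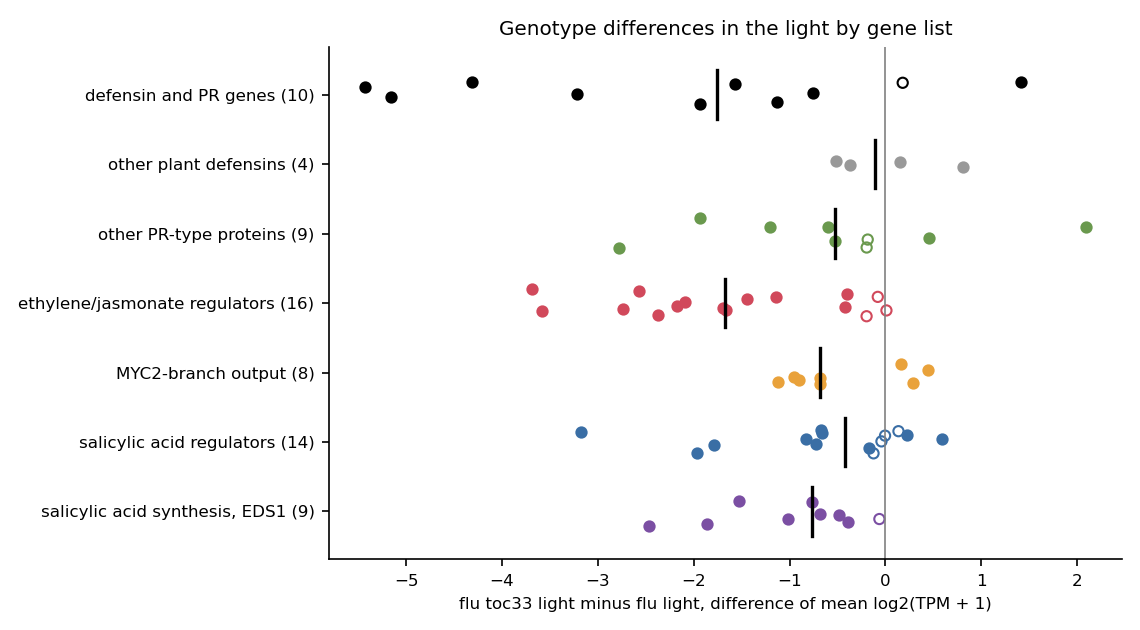
Differences between flu toc33 light and flu light in mean log2(TPM + 1) for the 10 defensin and PR genes and for the tested genes of 6 lists (number in brackets). Filled points were called by limma at an adjusted p under 0.05, open points were not, and the bar is the list median, which lies at -1.68 for the ethylene and jasmonate regulators and at -0.11 for the other defensins.

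Most tested genes of salicylic acid synthesis and the EDS1 node rose with light in flu, where PR1 stood lower. Of 11 genes listed for salicylic acid synthesis and the EDS1 node, 9 were tested. The list also holds ALD1, FMO1 and SARD4, which belong to neither, and of these SARD4 was tested and enters the counts. In flu 7 rose and none fell, with a median of 1.12 (7 and 1 under quantile normalization), while ICS1 and PBS3, both enzymes of salicylic acid synthesis, were not called, and in flu toc33 7 rose and none fell, with a median of 0.70. Of all tested genes 28.2% rose and 33.4% fell in flu. In flu toc33 40.4% rose and 30.6% fell, 71.0% in either direction. EDS1 (AT3G48090), a lipase-like regulator of immunity, rose from 11.9 ± 0.820 to 57.8 ± 1.76 TPM (SD, n = 3) in flu and from 9.02 ± 0.521 to 15.2 ± 0.165 TPM in flu toc33. SARD1 (AT1G73805) and CBP60G (AT5G26920), transcription factors that raise salicylic acid synthesis, stood at 10.2 ± 0.630 and 30.1 ± 0.881 TPM in flu light and at 1.03 ± 0.203 and 9.80 ± 0.680 TPM in flu toc33 light. Against flu light, 8 of the 9 genes were called lower in flu toc33 and none higher, with a median of -0.77, against 27.9% and 39.0% of all tested genes. In the dark 7 were lower and 2 higher, against 20.5% and 20.9%. PBS3 passed the filter only through flu libraries, and without it 7 of 8 were lower in the light and 6 of 8 in the dark. SARD1, still among the 8, reached 1 TPM in 2 flu toc33 libraries, too few to pass without flu.

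Of 17 regulators that act between salicylic acid and PR1, 14 were tested, and 8 were lower and 2 higher in flu toc33 light than in flu light, with a median of -0.42, against 27.9% and 39.0% of all tested genes. Median-ratio scaling gave 10 lower and 1 higher, and without WRKY54, which passed the filter only through flu libraries, 7 of 13 were lower. NPR3 (AT5G45110), a salicylic acid receptor that represses PR1, stood at 27.5 ± 0.709 TPM (SD, n = 3) in flu light and 6.29 ± 0.204 TPM in flu toc33 light. WRKY70 (AT3G56400), a factor that raises salicylic acid targets, stood at 20.3 ± 2.195 and 5.14 ± 0.631 TPM, and the glutaredoxin gene ROXY19 (AT1G28480), whose product binds TGA factors, at 15.8 ± 0.239 and 0.873 ± 0.220 TPM. These 3 were lower by a log2 of -1.97, -1.79 and -3.17, with limma adjusted p = 3.14e-12 for NPR3 and 1.67e-09 for WRKY70. None is given for ROXY19, still among the 7, which needed the flu libraries to pass the filter. NPR3, WRKY70 and ROXY19 were named because their p in this comparison was the smallest of the list. In flu 7 of the 14 genes rose and 4 fell in the light, against 28.2% and 33.4% of all tested genes, and in flu toc33 3 rose and 6 fell, against 40.4% and 30.6%. The light response was called smaller or more negative in flu toc33 for 6 of the 14 and for 6 of the 9 synthesis and EDS1 genes, and larger for none (limma, interaction), against 25.1% and 31.6% of all tested genes. Median-ratio scaling gave 9 of the 14. In the dark 5 were lower and 2 higher in flu toc33, against 20.5% and 20.9%, and 7 were not called.

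**Figure D5:**
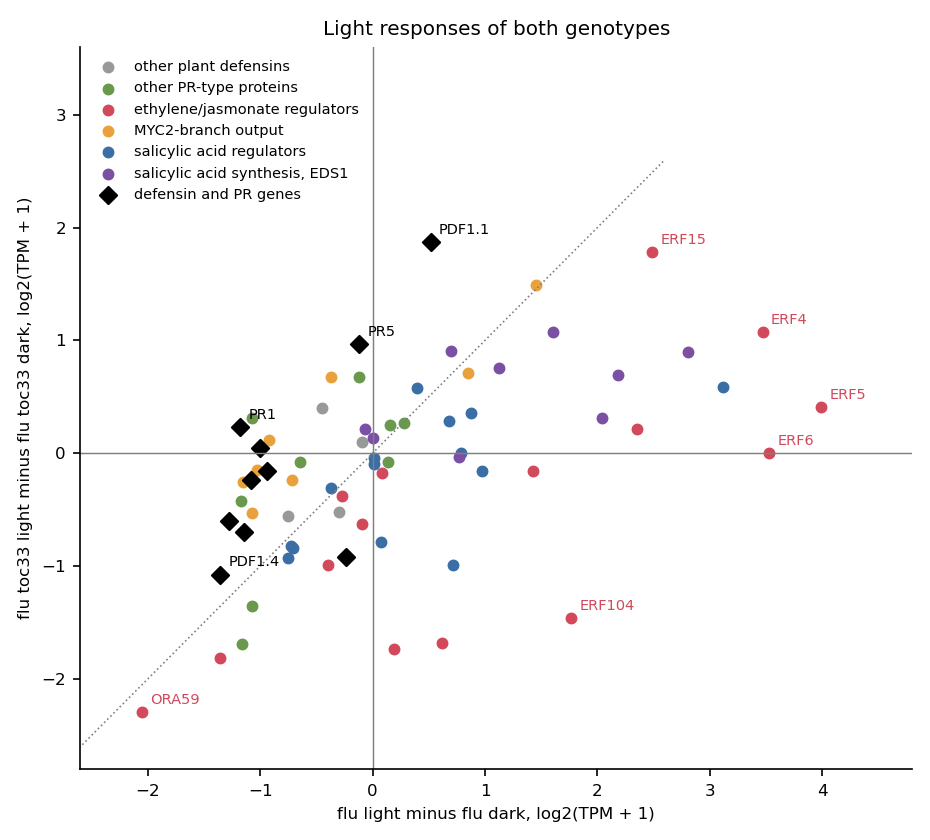
Difference between lit and dark groups in mean log2(TPM + 1), in flu on the horizontal axis and in flu toc33 on the vertical axis, for the 10 genes (diamonds) and the listed genes tested (circles), with a dotted line of equal response; MYC2 is left out because it is listed at or near 0 in flu dark. Of the diamonds 9 lie left of 0.1 on the flu axis, whereas ERF4, ERF5 and ERF6 lie beyond 3 on it and near or under 1 on the flu toc33 axis.

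The places of the 10 genes on the chromosomes, by gene order in the RefSeq table, gave 2 adjacent pairs, PDF1.2 with PDF1.2c on chromosome 5 and PDF1.3 with PDF1.2b on chromosome 2. The nearest protein-coding genes that are not among the 10 numbered 16, of which 12 were tested, and in flu toc33 light 3 were called higher, 2 lower and 7 were not called, against 39.0% higher and 27.9% lower of all tested genes. TLP-3, next to PR5 and one of the lower genes, passed the filter only through flu light, and without it 1 of 11 was lower. AT5G44410, next to PDF1.2, stood at 8.48 ± 0.168 TPM (SD, n = 3) in flu light and 15.3 ± 0.944 TPM in flu toc33 light and was higher by a log2 of 0.78 (limma, adjusted p = 4.22e-07). AT5G44440, next to PDF1.2c, stood at 0.662 ± 0.110 and 0.730 ± 0.174 TPM and was not called. PRB1 (AT2G14580), the PR1 relative next to PR1, stood at 7.29 ± 0.200 and 6.38 ± 1.85 TPM and differed by -0.20 ± 0.136 (limma, adjusted p = 0.221). TPR10 and IAA16, on either side of PR4, differed by 1.25 and -0.54, and AT2G26030, next to PDF1.2b, by 0.28, all called by limma (adjusted p = 1.92e-09, 1.08e-08 and 0.00531).

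The genes most like the summed defensin copies, PR1 and PR5 were found by the root mean square difference of log2(TPM + 1), each gene centred on its own mean, over the 12 libraries and 19657 other tested genes. AT3G22235 was nearest to both the defensin sum, at 0.762, and PR1, at 0.286, with dark and lit levels of 38.7 ± 4.197 and 18.7 ± 1.504 TPM (SD, n = 3) for flu and of 0.452 ± 0.438 and 0.971 ± 0.259 TPM for flu toc33. AT4G12490 and AT4G12495 were next for both, at 1.15 and 1.19 from the sum and 0.559 and 0.688 from PR1. The remaining genes nearest to the sum were AACT1 at 1.27 and FTM1 at 1.31, and those nearest to PR1 were AT3G18250 at 0.733 and the peroxidase gene Prx37 at 0.835. Unlike the sum, AACT1 stood higher in flu light than in flu dark, at 41.6 ± 2.26 against 25.7 ± 1.80 TPM (SD, n = 3). AT4G12495 varied widely in flu dark, at 33.7 ± 17.8 TPM. The spread of the targets about their own means was 2.70 for the sum and 2.01 for PR1. The genes nearest to PR5 were AT5G23750 at 0.129, MGD2, a galactolipid synthase, at 0.130, AT2G16660 at 0.142, MORF1, an organelle RNA editing factor, at 0.143, and AT4G40000 at 0.146, against a spread of PR5 of 0.400. All 5 had their lowest level in flu toc33 dark, as PR5 did, which follows from choosing them by likeness to PR5.

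Markers of cell types and organs moved between the genotypes as well, and their part in the results above was not tested. No marker was listed at 0 in all libraries of a group. Over all tested genes 39.0% were called higher and 27.9% lower in flu toc33 in the light, and 20.9% and 20.5% in the dark. The summed level of 9 seed markers was 68.6 to 73.9 TPM for flu dark, 20.4 to 26.8 TPM for flu light, 333 to 1574 TPM for flu toc33 dark and 214 to 219.6 TPM for flu toc33 light, and all 9 were called higher in flu toc33 in both treatments. CRB and SESA1 to SESA4 passed the filter only through flu toc33 libraries, and the other 4 were all called higher. The 8 root markers summed to 1182 to 1387 TPM for flu dark, 809 to 854 TPM for flu light, 1545 to 1592 TPM for flu toc33 dark and 1364 to 1397 TPM for flu toc33 light, with 5 of 7 tested higher in flu toc33 light and none lower, and 1 higher and 4 lower in the dark. Nearly all of the root sum was PYK10, with means of 1263, 816, 1543 and 1347 TPM in these groups. The sum therefore does not stand for the other root markers. Each marker sum leans towards its most abundant gene. The 5 leaf mesophyll markers summed to 26135 to 29678 TPM in the flu libraries and 22033 to 24549 TPM in the flu toc33 libraries, with 3 lower and 1 higher in the light. The 3 epidermis markers, all higher in flu toc33 light, summed to 232 to 287 TPM in the flu libraries and 304 to 486 TPM in the flu toc33 libraries. The 5 guard cell markers summed to 203 to 243 TPM and 199.7 to 232 TPM, with 3 lower in the light, and the 4 vascular markers to 115 to 128 TPM and 90.7 to 136 TPM, with 1 higher and 2 lower.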

How the data were processed

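The authors deposited 1 table of TPM values for 48359 transcripts and 12 libraries. The submitters' processing notes name kallisto 0.46.2, sleuth 0.30.0 and TAIR10; transcript set, strandedness and read filters were not given in the sources used here. TPM keeps no depth, and near-identical copies share reads. The series' design text gives a lower age than the titles.

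Transcripts were summed per locus. Names came from a RefSeq gene table of assembly TAIR10.1, with 27445 loci matched; its coordinates are not printed. limma 3.58.1 in R 4.3.3 fitted 4 group means to log2(TPM + 1) over all libraries, for 19667 genes that reached 1 TPM in 3 or more libraries, with moderated two-sided tests, a trend and Benjamini-Hochberg adjustment (threshold 0.05). The fit was tested on simulated data. Tables used pandas 2.3.3 in Python 3.11.15, figures matplotlib 3.10.9.

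The members and lists (74 genes in 6 lists, and 34 markers in 6 lists) were chosen with earlier results of these data known. Named genes were the 10 members, the 3 genes of each list with the smallest p between genotypes in the light, the 5 genes nearest in pattern to the defensin sum, PR1 and PR5, and chromosomal neighbours; others are marked. Alternatives: a pseudocount of 0.1 or 5 TPM, filtering at 5 TPM or not at all, quantile normalization, median-ratio scaling, a replicate block, compared groups alone, robust spread, other sums of copies and leaving out each library. No sequences were used here.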

Additional observations from a re-analysis of the deposited data

Results flagged for a closer look

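PR1 moved in opposite directions with light in the genotypes, with no overlap between dark and lit groups in either: its log2 difference was -1.18 in flu and 0.23 in flu toc33. The difference between these responses was not tested, and in flu toc33 all 6 values were under 1 TPM.

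Among the 18 listed genes with the smallest p between genotypes in the light, 3 from each of 6 lists, 14 had a light response that differed between flu toc33 and flu by limma's interaction term at an adjusted p under 0.05. The response was smaller or more negative in flu toc33 by a log2 of -3.58 for ERF5, -3.53 for ERF6, -2.30 for ERF1A, -2.53 for ROXY19, -1.91 for CBP60G, -1.74 for SARD1, -1.71 for NPR3, -1.49 for EDS1, -1.14 for WRKY70, -0.53 for EARLI1 and -0.28 for AZI1. It was larger or less negative in flu toc33 by 0.85 for PDF2.3, 1.04 for LOX2 and 1.04 for CORI3. Over all tested genes 56.7% were called in this comparison. The 18 genes were picked by the genotype difference in the light, which is part of the interaction term. That choice favours such calls, and nothing is read from the count of 14.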

How the results depend on the processing

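The 8 lower calls among the 10 genes in the light, and the difference of the summed copies, kept direction and call, the calls under 21 alternatives and the sum under 23. The sum ranged from -5.52 to -3.54. The count called higher was 1 to 2 over the fits leaving out 1 library, PR5 being added without flu light replicate 3. For the ethylene and jasmonate regulators in the dark, 8 calls became 3 with the compared groups alone and 5 under the replicate block, and 5 to 9 without single libraries; each of flu dark replicates 2 and 3, flu toc33 dark replicates 1 and 3 and flu toc33 light replicates 2 and 3 gave 5 when left out. The 1 interaction call of the other defensins became 2 under quantile normalization and under the replicate block, and was 1 to 2 without single libraries, with 2 when flu dark replicate 2, flu light replicate 3 or flu toc33 dark replicate 2 was left out. The cause was not tested. The replicate numbers share only a number: same-numbered libraries deviated together at a correlation over 0.1 in 1 of 18 pairs (-0.169 to 0.125). Untested differences of the 10 genes moved by more than the replicate spread in 35 of 630 cases, 28 of them with another pseudocount.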
